A study of Bos taurus with 17 samples.

Results

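Cumulus cells of immature follicles were compared between adult cows and prepubertal calves. The 12 arrays of this comparison, of 17 in the series, were chosen by their labels: 6 carried cumulus cells of calves (the NC1 stage) and 6 those of adult cows (the C1 stage). The NC1 cells came from individual calves of 3 to 6 months, and their oocytes, arrested in prophase I, could resume meiosis without being able to support development. The C1 cells came from individual adult cows of differing ages, and their prophase I oocytes were labelled competent for both. Both groups were collected after slaughter, without hormone treatment stated in the sources used here, by aspirating follicles of 3 to 6 mm, and complexes with several layers of compact cumulus were kept. Breed was not given for these 12 animals. The age of the animal and the competence of its oocytes changed together, so the effects of the one and of the other cannot be told apart. The 5 remaining arrays (C2, expanded cumulus of superovulated Holstein cows) entered the fit only to estimate the spread between arrays, unless a value is given for them.

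Cumulus cells are the granulosa cells that surround the oocyte. They send it metabolites and small signals through gap junctions, and the oocyte in turn secretes growth factors such as GDF9 and BMP15 that act on them. The calf oocyte is a classical model of poor developmental competence, since it matures in meiosis but seldom supports an embryo to term. Before ovulation the cumulus is compact, and in response to the surge of luteinising hormone it lays down a hyaluronan matrix and expands.

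The probes of 3 genes described further on are shown with their sequences, as deposited, because each value is the signal of such an oligonucleotide. Each has 60 bases and is written 5′ to 3′ in lower case throughout. The place of the probe in its transcript is not given in the files used here. EIF4E1B had the smallest adjusted p of all valid probes, S100A4 the largest difference among those that passed, and CA5A was read on every adult array but on only 1 calf array.
CA5A: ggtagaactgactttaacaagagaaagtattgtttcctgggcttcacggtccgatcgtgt
S100A4: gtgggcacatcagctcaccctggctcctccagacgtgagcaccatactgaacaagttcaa
EIF4E1B: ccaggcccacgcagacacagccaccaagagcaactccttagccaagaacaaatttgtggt

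All values are log2 signals after subtraction of each array's median, so that 1 unit is a 2-fold difference and 0 is the level of the median probe of that array. Differences are C1 minus NC1, with standard errors (SE) from 1 fit over the 17 arrays. A probe counted as present on an array when its spots stood well above background. Fewer probes were present at NC1 (66.0% to 76.5% of 21475) than at C1 (73.6% to 82.7%), a difference of 7.51 percentage points (2-sided exact permutation test, p = 0.0152), and 3 of the 6 NC1 arrays lay under 70%. The counts of calls with this share as a covariate are given beside the first counts. Arrays of the same group correlated at 0.970 to 0.990 and arrays of different groups at 0.955 to 0.985 over the 13865 valid probes. A probe was valid when at least 80% of the NC1, of the C1 and of the C2 arrays read it as present.

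The adult and calf cells differed in few genes, and of those that passed the test more were lower than higher in the adult. At an adjusted p under 0.01 (limma's moderated test, Benjamini-Hochberg adjustment), 8 of 13865 valid probes passed, or 0.0577%, of which 1 was higher (0.00721%) and 7 were lower at C1 (0.0505%). At an adjusted p under 0.05, 47 probes passed (0.339%), 5 higher (0.0361%) and 42 lower (0.303%), and at an unadjusted p under 0.05 there were 1365 (9.84%). The split between the directions moved with the background correction: after normexp correction 50 probes passed 0.05, 22 higher and 28 lower. The same probes fitted on the 12 NC1 and C1 arrays alone gave 77 calls at 0.01 (0.555%) and 336 at 0.05 (2.42%), with 83 higher (0.599%) and 253 lower (1.82%), and all 47 calls were among the 336. The C2 arrays spread more than the others, with a median SD per probe of 0.50 against 0.34 at NC1 and 0.33 at C1, and without C2 replicate 2 alone the count at 0.05 was 119. With the share of present probes as a covariate it was 2, and without the 3 NC1 arrays under 70% it was 3. Of 27 named probes past 0.05, 9 passed it whichever array was left out, among them all 8 past 0.01 and NSD3. The other 18 did not pass without NC1 replicate 2, and for most of them other single arrays had the same effect.

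A description that needs no shared spread counts the probes whose 6 adult and 6 calf values did not overlap. There were 291 of them (2.1% of the valid probes), 123 with all adult arrays above all calf arrays (0.887%) and 168 below (1.21%). After normexp correction there were 412 above and 92 below, so the larger share was then on the other side. For a single probe such a split has the smallest p that a 2-sided exact permutation test allows for 6 against 6, 0.00216. Of the 47 probes past 0.05, 34 did not overlap. Effects were mostly small: the middle range of the differences, from the lower to the upper quartile, ran from -0.15 to 0.24 around a median of 0.05, and 109 probes were higher and 298 lower at C1 by more than 1 unit, 2.94% of all.

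**Figure D1:**
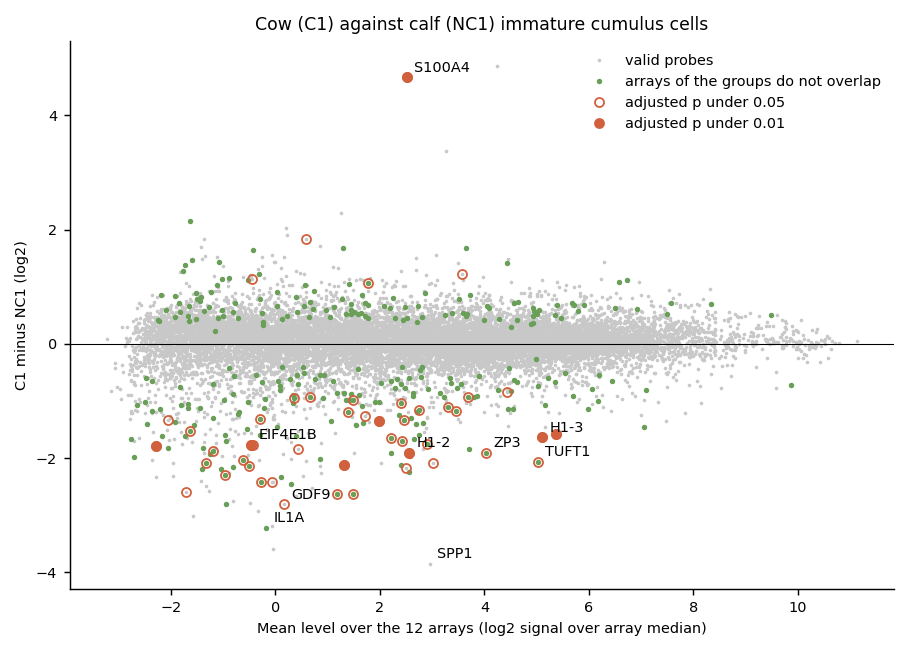
The difference between cow (C1) and calf (NC1) immature cumulus cells, in log2 units, is plotted against the mean level over the 12 arrays for each of the 13865 valid probes. Green points are the 291 probes whose groups do not overlap, open red circles pass an adjusted p of 0.05 and filled red circles 0.01. S100A4 is the highest of the circled probes, and 42 of the 47 circled probes lie below 0.

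The filter on all 3 stages leaves out genes that are silent in one of them. A wider set of 16190 probes, for which 80% of the NC1 or 80% of the C1 arrays sufficed, is therefore used beside it for the genes named as such. It was chosen after the values were seen. There 92 probes passed 0.05 (0.568%), 24 higher (0.148%) and 68 lower (0.42%) at C1, and 391 did not overlap (2.42%), 211 of them lower at C1 (1.3%). Its fit on the 12 arrays gave 531 calls (3.28%). A probe that entered through one group alone is likely to differ from the other by this choice, so no p is given for such probes, and their folds set each array of the dimmer group at its own signal or at the lowest signal above background on that array, whichever was higher.

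CA5A, a mitochondrial carbonic anhydrase that supplies bicarbonate to carboxylation reactions, was present on all 6 adult arrays and on 1 calf array. Its measured level was -4.54 to -3.37 (median -4.21) at NC1 and 2.24 to 3.49 (median 2.69) at C1, and no calf array came near the lowest adult array. Because 5 of the calf arrays did not read it above background, the adult level is given as at least 55.5-fold higher. At C2 the values were -3.86 to 1.16.

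S100A4, a calcium-binding protein linked to cell motility, was the 1 gene that rose at the stricter threshold. It read -0.55 to 1.04 (median 0.14) at NC1 and 2.51 to 5.76 (median 5.49) at C1. The lowest adult value belonged to replicate 5 and still exceeded every calf value. The difference was 4.67 ± 0.66, or 25.4-fold (adjusted p = 0.00549), with 2.73 to 6.14 within the slides. At C2 it ranged from -0.04 to 4.51, across nearly the whole gap between the groups.

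RNF182, an E3 ubiquitin ligase with a RING finger, was present on every adult array and on no calf array, which is why only a bound can be given at NC1. Its measured values were -5.08 to -3.69 (median -4.34) at NC1 and -1.35 to 1.11 (median 0.08) at C1. The level in adults was at least 7.98-fold higher, the calf arrays being set at the lowest signal that stood above background on each. In all, 21 of 21475 probes (0.0978%) were present on all adult and no calf array, and 0 (0.0%) on all calf and no adult array. The lowest signal above background was itself higher at NC1 (-3.89 to -2.29, median -2.95) than at C1 (-4.72 to -3.58, median -4.00), and for 18 of the 21 the bound was under 1-fold. MPPED2, a metallophosphoesterase, was at least 1.17-fold higher. CAPSL, SLITRK3 and CHRNA5, the next named genes among the 21, lay too close to background in the adult for a fold.

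AGRP and ASIP, the agouti-related peptide and agouti, are secreted antagonists of melanocortin receptors. AGRP read -3.42 to -1.30 (median -2.52) at NC1, where 4 arrays had it present, and -1.07 to 0.79 (median -0.61) at C1, at least 3.40-fold higher and without overlap. Of the probes for ASIP, the dimmer read -3.80 to 0.76 (median -2.87) at NC1, present on 4 arrays, and 0.53 to 2.69 (median 1.15) at C1, with NC1 replicate 4 among the adult values. The brighter, a valid probe, differed by -0.37 ± 0.27 (adjusted p = 0.719), so the probes for this gene disagree. TMEM139, a membrane protein, read -5.22 to -3.48 (median -4.19) at NC1, where 1 array was present, and -2.66 to -1.11 (median -1.68) at C1, at least 2.34-fold higher. These genes, like CA5A, were chosen after their values were seen, and all of these probes but the brighter one for ASIP entered the wider set through the adult arrays alone.

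Among the valid probes, 3 named genes rose at an adjusted p under 0.05 beside S100A4. BHLHE41, a transcriptional repressor of the circadian clock, read 2.52 to 3.68 (median 2.84) at NC1 and 3.54 to 4.61 (median 4.19) at C1, a difference of 1.23 ± 0.25 (adjusted p = 0.0401). H2BC26, a core histone of the H2B family, differed by 1.14 ± 0.24 (adjusted p = 0.0466), and TPRG1L by 1.83 ± 0.39 (adjusted p = 0.0466). In all 3, 1 calf value reached into the adult range, that of NC1 replicate 5, 6 and 4 in this order. Each of the 3 calls was lost without any 1 of 9, 12 and 13 of the 17 arrays.

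The named genes with the largest differences among those that were higher in every adult array were, after S100A4, CA9, MBLAC2, PHF24, ADH6, BEND4, SLC25A15, MYF6, NDUFA4L2, RPS26, MYCN and DENND3. None of these 11 passed in the fit over 17 arrays (adjusted p from 0.0596 to 0.670), and 10 of them did in the fit of the 12 arrays, DENND3 being the exception (adjusted p = 0.0574). CA9, a carbonic anhydrase of the cell surface that low oxygen induces in many cells, read -0.47 to 1.32 (median 0.34) at NC1 and 1.60 to 2.42 (median 2.26) at C1, a difference of 1.68 ± 0.42. NDUFA4L2, a mitochondrial protein also known to respond to low oxygen, lay well above the array median at both ages, with 5.27 to 6.47 (median 6.32) against 7.08 to 7.62 (median 7.28), a difference of 1.12 ± 0.73 or 2.17-fold. SLC25A15, the ornithine carrier of the mitochondrial membrane, differed by 1.23 ± 0.29, although its dimmer probe differed by 0.38 ± 0.33. MYCN, a growth-promoting transcription factor, read 0.30 to 1.49 (median 0.86) and 1.58 to 2.39 (median 1.84).

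Linker histones, which bind the DNA between nucleosomes, were among the genes that fell. H1-3 read 5.19 to 6.75 (median 5.77) at NC1 and 4.19 to 4.46 (median 4.28) at C1, and the adult arrays lay closer together than the calf arrays. It was 3.11-fold higher in the calf (difference -1.64 ± 0.24, adjusted p = 0.00578), and within the slides the difference ran from -2.46 to -0.92. H1-2 read 2.79 to 4.50 (median 3.45) and 1.11 to 2.17 (median 1.49), a difference of -1.91 ± 0.28 (adjusted p = 0.00649). The linker histones H1-10 and H1-5 differed by 0.55 ± 0.46 and 0.50 ± 0.63, and neither passed (adjusted p = 0.762 and 0.858).

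Of the other 5 probes past 0.01, all lower in the adult, EIF4E1B had the smallest adjusted p. It encodes a relative of the cap-binding protein eIF4E that is known from oocytes. Its values were -0.17 to 0.85 (median 0.54) at NC1 and -1.90 to -0.93 (median -1.21) at C1, a difference of -1.77 ± 0.21 (adjusted p = 0.00165), and C1 replicates 3 and 6, the arrays with the least oocyte signal, were its lowest adult values. The remaining 4 were transcripts that the reference table does not name. The array's design describes them as similar to vinculin, an adaptor of cell adhesions (-1.57 ± 0.22), to the palmitoyltransferase ZDHHC2 (-2.12 ± 0.32), to the zinc finger protein ZCCHC2 (-1.35 ± 0.21) and as an unidentified transcript (-1.79 ± 0.27). The vinculin-like probe read 5.95 to 6.42 (median 6.14) at NC1 and 4.08 to 5.30 (median 4.60) at C1, without overlap.

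The array's design describes 10 probes as genes of the HOXD cluster, transcription factors of positional identity, of which 7 were in the wider set. Of the 7, 5 had the lower mean in the adult, 4 of them without overlap, where 1.3% of all 16190 probes were lower without overlap. HOXD11 and HOXD13, which entered through the adult arrays alone, had the higher mean. The family was chosen after its values were seen, so these counts are a description. The probe for LOC540250, described as HOXD9, read 2.64 to 3.08 (median 2.76) at NC1 and -0.08 to 0.51 (median 0.06) at C1, with a spread inside either group that was a small part of the gap between them. It fell by 2.63 with an SE of 0.48 in the fit over 17 arrays (adjusted p = 0.0227), and the adjusted p in the 12 arrays was 2.11e-07. Its second, dimmer probe differed by -1.78 ± 0.43 (adjusted p = 0.0658 in the wider set). LOC613955, described as HOXD8, read -1.66 to -0.75 (median -1.39) and -4.14 to -2.60 (median -3.52), a difference of -2.05 ± 0.27 (adjusted p = 0.00183 in the wider set). HOXD4, a valid probe, was lower in every adult array by -1.43 ± 0.37 without passing (adjusted p = 0.110). WNT5B, a secreted WNT ligand, SOSTDC1, an antagonist of BMP and WNT ligands, and CHL1, an adhesion molecule, did not overlap between the groups and entered through the calf arrays alone. They were present on 4, 3 and 3 adult arrays, and at least 3.97-fold, 5.59-fold and 4.21-fold lower in the adult. These genes were chosen after their values were seen. At C2 the HOXD9 probe ranged from -4.68 to -0.05 and the HOXD8 probe from -4.98 to -3.80.

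Further named genes fell at 0.05. KLF9, a zinc finger factor that responds to steroid hormones, read 2.65 to 4.07 (median 3.31) at NC1 and 0.81 to 2.26 (median 1.76) at C1, a difference of -1.71 ± 0.29 (adjusted p = 0.0149). NSD3, a histone methyltransferase, differed by -0.92 ± 0.15 (adjusted p = 0.0104), and MDM4, an inhibitor of p53, by -0.96 ± 0.19 (adjusted p = 0.0317). TUFT1 (-2.06 ± 0.40), ARG2, the mitochondrial arginase (-2.08 ± 0.39), EPS8, which binds and caps actin filaments (-2.30 ± 0.43), RASGRP2, an exchange factor for the small GTPase Rap1 (-2.42 ± 0.45), and SMCO4, a small membrane protein (-2.04 ± 0.39), passed as well, with adjusted p from 0.0244 to 0.0304. So did LOC513055, described as RGS2, an inhibitor of G protein signalling (-2.18 ± 0.41), LOC516006, described as ETS2 (-1.87 ± 0.36), and a transcript described as the aryl hydrocarbon receptor (-1.20 ± 0.23).

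The named genes with the largest negative differences without overlap also held some that did not pass over the 17 arrays. BOK, a pore-forming member of the BCL2 family, read 2.75 to 4.55 (median 3.73) at NC1 and 0.91 to 2.05 (median 1.42) at C1, a difference of -2.24 ± 0.51 (adjusted p = 0.0721; 0.00110 in the 12 arrays). The values of BOK at C2 ranged from 3.08 to 6.70 and enter the shared estimate of its spread. SYTL2, which tethers secretory vesicles, differed by -2.81 ± 0.85, ARHGAP25, a GTPase activator of blood cells, by -2.45 ± 0.62 and COCH, an extracellular protein, by -2.20 ± 0.48. Their adjusted p was 0.188, 0.103 and 0.0596, and in the 12 arrays 0.00689, 0.0214 and 0.00208.

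**Figure D2:**
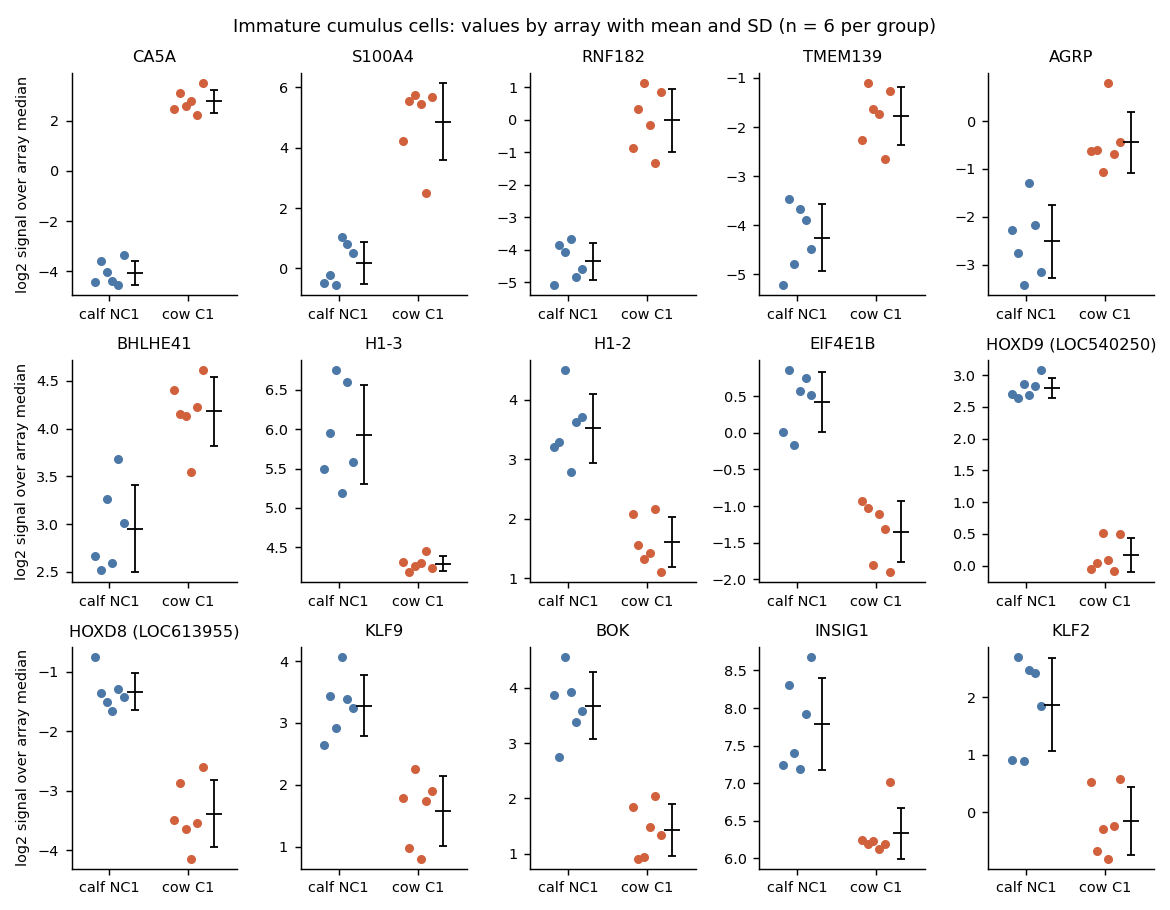
Log2 signal over the array median for 15 genes in the 6 calf (NC1, blue) and 6 cow (C1, red) arrays, with mean and SD beside the points; each panel has its own vertical scale. CA5A runs from -4.54 to -3.37 in calves and from 2.24 to 3.49 in cows, and BHLHE41 is the panel whose groups overlap.

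Most measured transcripts of the oocyte were higher in the calf samples. Of 19 oocyte markers on the array, 5 were valid, and 4 of these had the lower mean at C1, with a median difference of -1.91 against 0.05 over all valid probes. Of the 5, 3 were lower without overlap (1.21% of all valid probes) and 2 fell at 0.05 (0.303%). The wider set held 15 of the 19, 14 of them with the higher mean at NC1, but 5 of the 15 had entered through the calf arrays alone, so this count is a description. ZP3, a zona pellucida protein, read 4.37 to 5.55 (median 4.96) at NC1 and 2.07 to 4.11 (median 3.28) at C1, a difference of -1.91 ± 0.32 (adjusted p = 0.0133). GDF9, the growth factor through which the oocyte acts on its cumulus, read 1.12 to 2.11 (median 1.52) and -3.26 to 1.31 (median -1.16), a difference of -2.81 ± 0.50 (adjusted p = 0.0177). PADI6, a protein of the egg's cytoplasmic lattices, differed by -2.58 ± 0.56 (adjusted p = 0.0446 in the wider set). It did not pass when the filter asked for both NC1 and C1, or for any 2 of the 3 stages (adjusted p up to 0.0572). BMP15, the partner of GDF9, was present on 5 calf and 3 adult arrays and at least 3.29-fold lower in the adult. NLRP5, a maternal protein of the egg cortex, was lower in every adult array by -2.13 ± 0.64 without passing (adjusted p = 0.186), as was TLE6 of the same complex (-0.91 ± 0.23).

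The calf arrays were alike in these genes, whereas the adult arrays were not. ZP2 read 2.82 to 3.96 (median 3.27) in the calves but -6.93 and -5.92 in C1 replicates 3 and 6, against 0.25 to 2.91 in the other 4 adult arrays. The summed signal of the 19 markers, in multiples of the array median, was 75.4 to 173 at NC1 (median 112) and 10.4 to 67.3 at C1 (median 28.8), with the lowest values in C1 replicates 3 and 6. NOBOX alone of the 15 differed the other way (0.13 ± 0.22). In such mixed samples, fewer cells of a type and less RNA per cell cannot be told apart. Some further genes were chosen after their values were seen. ASTL, the egg protease that cleaves ZP2 (-3.06 ± 0.58), and POU5F1, a transcription factor of germ cells (-2.58 ± 0.42), present on 6 calf and 5 adult arrays each, had adjusted p of 0.0214 and 0.00933 in the wider set. Probes described as NANOS1 (-2.09 ± 0.41) and GDF3 (-2.42 ± 0.49) passed among the valid probes (adjusted p = 0.0305 and 0.0381). The part of the oocyte signal in the differences of other genes was not tested.

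Leukocyte markers lay on both sides. Of 21 on the array, 12 were valid, 5 with the higher and 7 with the lower mean at C1, and their median difference was -0.60. None passed 0.05 over the 17 arrays and 1 did not overlap, while CSF1R, CD163 and CD68 passed in the 12 arrays, where 1.82% of all valid probes were lower. CSF1R, the receptor of the macrophage growth factor CSF1, read 0.28 to 2.14 (median 1.39) at NC1 and -2.02 to 0.23 (median -1.17) at C1, just without overlap, a difference of -2.33 ± 0.74 (adjusted p = 0.211; 0.0109 in the 12 arrays). CD163, a scavenger receptor of macrophages, differed by -2.03 ± 0.61 and CD68 by -1.56 ± 0.58, while LAPTM5, CXCR4, AIF1 and CD14, the other 4 with the lower mean at C1, differed by -1.73 ± 0.71, -0.96 ± 0.45, -0.94 ± 0.71 and -0.25 ± 0.27. A probe assigned to SPI1 by the reference table, but described as SPIB by the array's design, differed by -2.15 ± 0.54. PTPRC, which marks all leukocytes, differed by 0.26 ± 0.23, the largest difference of the 5 valid markers with the higher mean at C1, not all of which are named here. TYROBP differed by 0.01 ± 0.24 and the T cell gene CD2 by 0.18 ± 0.20, while CD3E, CD8A and ITGAM were present on none of the 12 arrays.

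Cytokines and chemokines had wide spreads. IL1A, a cytokine, read -0.66 to 2.91 (median 1.68) at NC1 and -3.46 to -0.95 (median -1.29) at C1, a difference of -3.22 ± 0.80 (adjusted p = 0.0986), the largest negative one among named valid probes without overlap. SPP1, osteopontin, spanned 2.81 to 6.43 (median 5.07) and -2.55 to 3.81 (median 1.42), with 1 adult array within the calf range, and differed by -3.85 ± 1.15 (adjusted p = 0.183). CXCL2 and TNF, present on 4 adult arrays each, entered the wider set through the calf arrays alone, and the groups overlapped in both. Of 26 probes for CCL and CXCL chemokines 12 were valid, 3 with the higher and 9 with the lower mean at C1, and none passed or was without overlap. Of these, CCL4 (-3.59 ± 0.88), CCL2 (-3.19 ± 0.99), CXCL8 (-3.01 ± 0.92) and CCL8 (-2.76 ± 0.90) had adjusted p from 0.0962 to 0.228. The chemokines, TNF, SPP1 and CXCL2 were chosen after their values were seen. The summed signal of the 21 leukocyte markers was 28.6 to 52.3 at NC1 and 23.6 to 40.8 at C1, and its part in these differences was not tested.

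**Figure D3:**
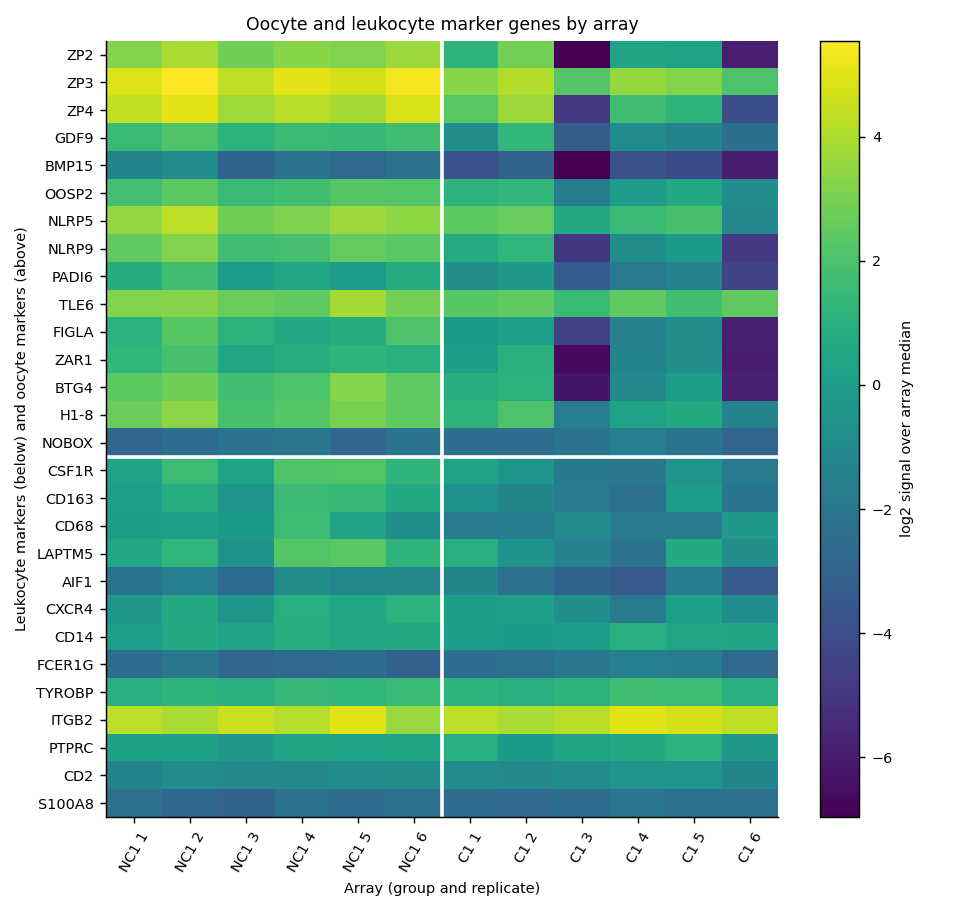
Log2 signal over the array median of 15 oocyte markers (above the white line) and 13 leukocyte markers (below) in the 6 NC1 and 6 C1 arrays. The oocyte markers vary little across the calf arrays and ZP2, ZAR1 and BTG4 drop to between -6.93 and -5.82 in C1 replicates 3 and 6. CSF1R, CD163 and CD68 are brighter in most calf arrays than in most cow arrays.

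Markers of other cell types were also counted. The 3 valid genes of red blood cells, the 6 of endothelium, the 9 of theca and stroma and the 6 of the ovarian surface had median differences of 0.22, -0.11, -0.04 and 0.02, and none of their members passed 0.05 over the 17 arrays. The summed signals of all their members on the array overlapped between the groups: 28.8 to 131 at NC1 and 73.6 to 259 at C1 for red blood cells, and 3.04 to 5.15 and 2.75 to 4.26 for endothelium. Among the valid members COL3A1, a fibrillar collagen of the stromal list, stood furthest from 0 (-2.50 ± 1.19), with overlap. COL1A2, another collagen of that list, entered the wider set through the calf arrays alone and overlapped between the groups as well.

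None of the 11 valid markers of cumulus and granulosa cells passed, and the best known of them read far above the array median at both ages. INHA and INHBA, subunits of inhibin and activin, FST, which binds activin, SERPINE2 and GJA1, the connexin of cumulus gap junctions, had mean levels between 9.68 and 10.7 at NC1 and between 9.76 and 10.6 at C1. Their differences were -0.08 ± 0.28, 0.13 ± 0.53, -0.02 ± 0.22, -0.25 ± 0.28 and 0.07 ± 0.37. FSHR, the receptor of follicle-stimulating hormone, read 4.50 to 5.71 (median 5.02) and 5.40 to 5.91 (median 5.55), a difference of 0.48 ± 0.22 (adjusted p = 0.489), with an interval of 2 SE from 0.03 to 0.93. AMH, which restrains follicle growth, differed by -0.63 ± 0.26 (adjusted p = 0.421; interval -1.15 to -0.10), and CYP19A1, the aromatase, by -0.20 ± 0.90, a standard error that leaves room for differences of more than 1 unit either way. LHCGR, the receptor of luteinising hormone, was present on 1 of the 12 arrays.

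No gene of the lists of hormones, growth factors and developmental signals passed 0.05 over the 17 arrays. They were steroid synthesis (17 valid genes, 12 higher at C1), hormone receptors (14, 8 higher), inhibins and AMH (9, 4 higher), BMP and TGF-beta signalling (18, 6 higher), cumulus expansion (13, 8 higher), the IGF axis (11, 5 higher), imprinted genes (11, 6 higher), and WNT, hedgehog and Notch signalling (24, 15 higher), where 57.3% of all valid probes had the higher mean at C1. Their medians lay between -0.11 and 0.32, against 0.05 over all valid probes, and the median of the imprinted genes was -0.07 when all probes of a gene were averaged. STAR, which brings cholesterol to the steroid-making enzymes, read 2.02 to 4.32 (median 2.90) at NC1 and -0.38 to 2.63 (median 0.63) at C1, a difference of -2.08 ± 1.28 (adjusted p = 0.650; 0.0401 in the 12 arrays). AXIN2, a target of WNT signalling, differed by -1.19 ± 0.36 without overlap (adjusted p = 0.194), and SFRP4, a secreted WNT antagonist, read 6.25 to 7.20 (median 6.51) and 5.06 to 6.20 (median 5.76) (adjusted p = 0.643). VDR, the vitamin D receptor, was higher in every adult array (0.55 ± 0.17, adjusted p = 0.196). At the other ends of these lists stood FZD6, a WNT receptor (1.49 ± 0.42), INHBC, an activin subunit (1.12 ± 1.09), TNFAIP6, which crosslinks the expanding matrix (1.06 ± 0.69), PEG3, an imprinted zinc finger gene (0.71 ± 0.55), and, with the lower mean at C1, PLAT, the tissue plasminogen activator (-1.02 ± 0.53), PTGS2, the inducible prostaglandin synthase (-0.93 ± 0.45), MEST, an imprinted hydrolase (-0.96 ± 0.31), BMP6 (-0.71 ± 0.37), IGFBP3 (-0.69 ± 0.74) and ESR2, an oestrogen receptor (-0.55 ± 0.24). None of these 10 passed over the 17 arrays, and the groups overlapped in each. In the 12 arrays FZD6 (adjusted p = 0.0461), MEST (0.0389), AXIN2 (0.0114) and SFRP4 (0.0413) passed 0.05, as STAR did. In that fit 0.599% of all valid probes passed with the higher and 1.82% with the lower mean at C1.

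Most genes of energy metabolism had the higher mean in the adult, by small amounts, and none passed 0.05. Among all valid probes, 57.3% had the higher mean at C1 and the median difference was 0.05. Of 75 valid subunits of the respiratory chain, 71 had the higher mean at C1, with a median difference of 0.29 and a range from -0.17 to 0.83. NDUFS7 of complex I (0.46 ± 0.21) was the 1 of 75 without overlap, where 0.887% of all valid probes were higher without overlap. The mean level of the 75 genes was 5.93 to 6.65 at NC1 and 6.29 to 6.88 at C1, so the groups overlapped, and the list's median was above 0 on 5 of 6 slides, from -0.09 to 0.69. NDUFS6 had the largest difference (0.83 ± 0.28, adjusted p = 0.242). Ribosomal proteins were higher for 60 of 73 genes with a median of 0.08, close to that of all valid probes, and RPS26 was their 1 member without overlap (1.08 ± 0.27). The probes for RPL11 had opposite signs.

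In glycolysis, 18 of 24 genes had the higher mean at C1 (median 0.17), and GAPDH read 8.89 to 9.45 (median 9.26) and 9.58 to 9.97 (median 9.70), without overlap. In fatty acid oxidation, 14 of 21 were higher (66.7%, median 0.09), not far from all valid probes (57.3%, median 0.05). CPT1A, which admits fatty acids to the mitochondrion, was lower in every adult array (-0.86 ± 0.30, adjusted p = 0.284). The glutathione and redox list had 27 of 36 higher, and the peroxidases GPX4 (0.71 ± 0.26) and GPX1 (0.53 ± 0.21) did not overlap, whereas HMOX1, haem oxygenase, differed by -1.21 ± 0.34 (adjusted p = 0.144). PTGES, a prostaglandin E synthase, was higher in every adult array (0.68 ± 0.23, adjusted p = 0.256).

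Immediate early genes respond first to stimulation. They, and genes of protein folding and of cholesterol synthesis, had more members with the lower mean in the adult. No valid member passed 0.05 over the 17 arrays. In the wider set 1 of 29 folding genes passed it with the lower mean at C1, where 0.42% of all probes did. Of 25 valid immediate early genes, 17 had the lower mean at C1 (median -0.34). KLF2, a zinc finger factor, read 0.89 to 2.70 (median 2.14) and -0.81 to 0.57 (median -0.26), and FOSL1, a partner of AP-1, 2.51 to 4.09 (median 3.08) and 0.39 to 1.96 (median 1.30). With FOSL2 (-1.24 ± 0.67), these were the 3 of 25 whose groups did not overlap, where 1.21% of all valid probes were lower without overlap, and their adjusted p over the 17 arrays was 0.170, 0.231 and 0.582. In the 12 arrays it was 0.00614, 0.00527 and 0.00576. FOSB had the largest difference the other way (0.84 ± 0.54).

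Of 27 heat shock and folding genes, 21 had the lower mean at C1 (median -0.26). HSP90B1, a chaperone of the endoplasmic reticulum, read 9.82 to 10.56 (median 10.32) and 9.30 to 9.71 (median 9.52), and neither it nor PDIA3, a disulphide isomerase (-1.14 ± 0.30), nor HSPA6 (-1.30 ± 0.28) overlapped between the groups (adjusted p = 0.363, 0.110 and 0.0570). Of 22 genes of cholesterol synthesis, 14 had the lower mean (median -0.14). INSIG1, which retains the sterol sensor in the endoplasmic reticulum, read 7.19 to 8.68 (median 7.66) and 6.12 to 7.02 (median 6.21), a difference of -1.46 ± 0.37 (adjusted p = 0.102; 0.00754 in the 12 arrays). SC5D, a late enzyme of the pathway, differed by -1.07 ± 0.28 without overlap, and HMGCS1, an early one, by -1.18 ± 0.33 with overlap. After normexp background correction the medians of the folding and cholesterol lists were 0.06 and 0.12, and that of the immediate early genes -0.01, where the median of all valid probes was 0.20. All 3 medians then lay below that of all valid probes, while those of the first pair were above 0.

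**Figure D4:**
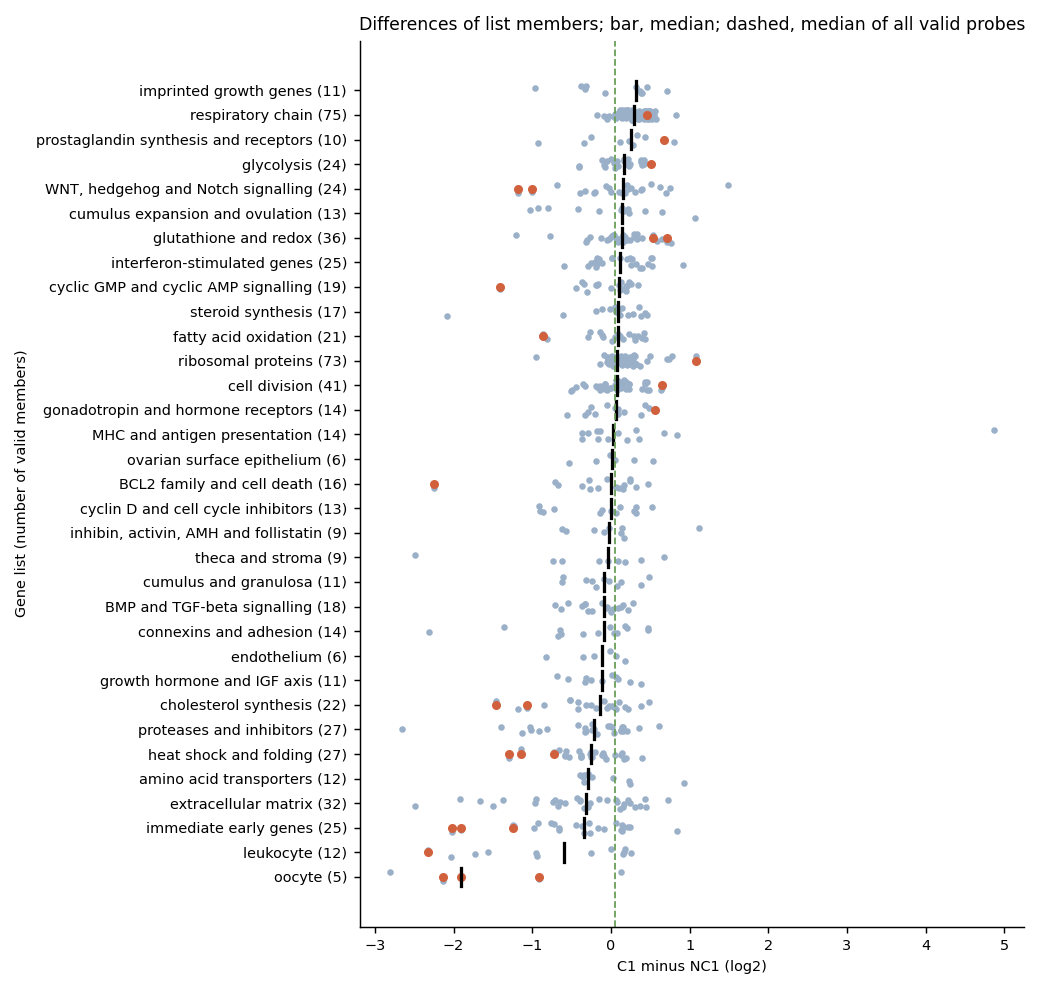
Each point is the difference between C1 and NC1 (log2) of 1 valid member of a gene list, with the list's median as a bar, members without overlap in red and the median of all valid probes, 0.05, as a dashed line. The lists are ordered by median, from the oocyte markers at -1.91 to the imprinted genes at 0.32, and 71 of the 75 respiratory chain genes lie right of 0.

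Cell division (26 of 41 genes higher at C1, median 0.08), cyclins D and their inhibitors (7 of 13), interferon-stimulated genes (15 of 25), cyclic nucleotide signalling (11 of 19) and prostaglandin genes (7 of 10) had no member past 0.05. Nor had connexins and adhesion genes (6 of 14), proteases and their inhibitors (10 of 27), amino acid transporters (4 of 12), the BCL2 family (8 of 16) and extracellular matrix (12 of 32, median -0.31). CDT1, which licenses DNA replication, was higher in every adult array (0.65 ± 0.25), and ADCY7, an adenylate cyclase, was lower in every one (-1.41 ± 0.51). Among the matrix, adhesion and protease genes, FN1, fibronectin (-1.92 ± 0.68), CLDN1, of tight junctions (-1.36 ± 0.92), SERPINB2, a plasminogen activator inhibitor (-2.66 ± 1.48), and CTSS, a cathepsin of antigen-presenting cells (-1.40 ± 0.42), were among the lowest differences, with overlap. GADD45A (-0.91 ± 0.45) and CDKN1A (-0.91 ± 0.54), inhibitors of the cell cycle, had the lowest differences of their list, and IFITM1 (0.92 ± 0.46) was highest among the interferon-stimulated genes. The antigen presentation list had 7 of 14 genes higher, and BOLA genes varied widely between calves. BOLA-NC1, a class I gene whose name has nothing to do with the NC1 stage, read -4.71 to 7.28 (median 1.79) at NC1 and 5.29 to 8.05 (median 6.79) at C1, and BOLA-DQB1, a valid class II probe that is no member of the list and was chosen after its values were seen, -1.92 to 5.94 (median 1.03) and 3.87 to 6.05 (median 5.22). Their differences of 4.87 ± 1.68 and 3.37 ± 0.99 did not pass among the valid probes (adjusted p = 0.271 and 0.176).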

How the data were processed

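RNA of cumulus cells from individual animals was labelled with Cy3 (0.35 µg) and hybridised to 1-colour bovine Agilent 4x44K arrays, and the authors deposited 1 Feature Extraction 10.5.1.1 file per array. The processed signal intensity in the deposited files is already corrected for background. The authors' own normalized table holds log2 values of the same arrays and was used as an alternative and for probe sequences. The genome build behind the probes was not given in the sources used here.

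Here log2 intensities of the spots of a probe were averaged and each array's median over non-control probes was subtracted. Spots not uniform or not well above background were marked absent, none was saturated, and a probe was valid when at least 80% of the arrays at each of 3 stages had it present (13865 of 21475). NC1, C1 and C2 were fitted together with limma 3.58.1 in R 4.3.3 (lmFit, eBayes, Benjamini-Hochberg); p under 0.01 is the methods' threshold. Exact permutation tests, counts and figures used Python 3.11.15 with scipy 1.17.1 and matplotlib 3.10.9. In data simulated for the C1 against NC1 comparison over 13865 probes, the fit recovered 64% of probes shifted by 1 unit and 4% of those shifted by 0.5 at an adjusted p under 0.05. The real C2 arrays spread more than the others (median SD per probe 0.50, against 0.34 at NC1 and 0.33 at C1). All simulated arrays, those of C2 included, carried the pooled spread of the NC1 and C1 arrays. These shares may therefore overstate what the fit recovers in the real data.

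Genes are named through a RefSeq table by accession, gene ID, symbol or synonym, and otherwise by the name in the array's own files. In this way 13512 probes had a gene symbol that is no accession or LOC name. Where a gene had several valid probes, the brightest stands for it. The text names probes past 0.01, the 12 largest differences in each direction without overlap, up to 5 genes present in 1 group only, up to 4 passing or the 2 most extreme members per list in each direction, cell type markers, and others said to be chosen after their values were seen or named as calls at 0.05 or members without overlap. Some genes that these rules would name are not reported here. Genes and lists were chosen with earlier results of these data known. Each of 6 slides held 1 NC1 and 1 C1 array, over 2 scan days. Numbers of array replicates limit the precision. Arrays of the same replicate number did not deviate together (correlations of -0.32 to -0.07).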

Additional observations from a re-analysis of the deposited data

Results flagged for a closer look

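Of the 239 genes and probes examined, each in both groups of 6 arrays, 27 group values stood apart from their nearest neighbour by more of the group's range than Dixon's 95% critical value for 6 samples. Chance gives such a value in about 1 of 20 groups, and 478 groups were examined. All are log2 signals over the array median. NC1 replicate 2 held SMCO4 at 1.23 (nearest 0.38). NC1 replicate 3 held HSPA2 at 3.44 (nearest 2.58), PTPRC at -0.26 (nearest 0.18), INSL3 at 7.86 (nearest 6.88) and LUM at 1.96 (nearest 3.87). NC1 replicate 4 held PHF24 at -3.01 (nearest -1.86), NDUFA4L2 at 5.27 (nearest 6.23), CYP11A1 at 5.56 (nearest 6.16), ASIP at 0.76 (nearest -2.43) and TPRG1L at 1.88 (nearest -0.40). NC1 replicate 5 held JAG2 at 5.61 (nearest 6.79), COL4A2 at -1.25 (nearest -0.16), IFITM1 at 2.83 (nearest 1.36), SLC6A9 at 2.94 (nearest 4.75), INHA at 11.63 (nearest 10.65), FST at 10.86 (nearest 10.14), SERPINE2 at 11.33 (nearest 10.70), PECAM1 at -0.35 (nearest -2.51) and CYP17A1 at 2.39 (nearest 2.06). C1 replicate 1 held HBA at 8.01 (nearest 6.60). C1 replicate 2 held IGFBP4 at 3.46 (nearest 4.20). C1 replicate 4 held RUNX2 at -1.56 (nearest 0.78) and AGRP at 0.79 (nearest -0.44). C1 replicate 5 held CYP11A1 at 7.67 (nearest 6.66) and PPARGC1A at 1.33 (nearest -0.90). C1 replicate 6 held INSIG1 at 7.02 (nearest 6.24) and FCGRT at 7.92 (nearest 7.38). NC1 replicate 5 held 9 of the 27, more than any other of the 12 arrays. The differences of PHF24, NDUFA4L2, SMCO4 and INSIG1 were described without overlap with these arrays included.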

How the results depend on the processing

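The number of calls changed widely between settings. At an adjusted p under 0.01 the 8 calls became 77 with only the 12 NC1 and C1 arrays, 2 with slide as a block, 116 with the 12 arrays and slide as a block, 25 with no filter, 239 with array weights and 2 without moderation. With the share of present probes as a covariate there were 0 (2 at 0.05), and without the 3 NC1 arrays under 70% present there were 2 (3 at 0.05). Replicate numbers did not pair the arrays, and a fit with the replicate number as a block gave 0 calls at 0.01 and 22 at 0.05. At 0.05 the 47 calls became 336 with only the 12 arrays, 366 with the 12 arrays and slide as a block, 79 with scaling to the 75th percentile, 105 with quantile normalization, 1549 with no filter, 825 with array weights and 9 without moderation. Among settings chosen after the values were seen, the filter on NC1 and C1 with the 12 arrays gave 84 and 390, the filter on either group 18 and 92, and the latter with the 12 arrays 92 and 531. Leaving out 1 array at a time gave 1 to 19 calls at 0.01, 10 to 119 at 0.05 and 320 to 497 probes without overlap. The count at 0.05 moved by more than 1.5 times without NC1 replicates 2 (10), 4 (16), 5 (21) and 6 (18), C1 replicates 3 (20), 4 (29) and 5 (22), and C2 replicate 2 (119). At 0.01 it was 1 without NC1 replicates 1, 2, 5 or 6 or C1 replicate 6, 2 without C1 replicates 1, 3 or 4, 4 without C1 replicate 5, 13 without NC1 replicate 3 or C1 replicate 2, and 19 without C2 replicate 2. The cause of these shifts was not tested.

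The 291 probes without overlap became 469 with the 75th percentile (207 higher and 262 lower), 493 with quantile normalization, 504 with normexp (412 higher and 92 lower, against 123 and 168), 466 with no filter and 1172 without the 3 NC1 arrays under 70%, where fewer arrays make a split easier. Without NC1 replicate 1 they were 496, without NC1 replicate 3 497 and without C1 replicate 6 487. Normexp moved the median difference of all valid probes to 0.20. No named gene past 0.05 changed direction under any setting run, and keeping all spots or taking the authors' normalized table changed no call among 204 named probes. Of the named calls at 0.05, 25 were lost with the share of present probes as a covariate, 25 without the 3 NC1 arrays, 18 without moderation, 15 with normexp, 12 with the replicate block and 7 with the slide block. EIF4E1B passed 0.05 under every setting run. Genes of the wider set were refitted under few of these settings. Arrays carry no counts, and precision rests on 6 arrays per group and on signal over background.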
